A study of Caenorhabditis elegans with 18 samples.

Results

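Translation initiation and elongation factors are the soluble proteins that load a ribosome onto a messenger RNA and move it along the coding sequence. In Caenorhabditis elegans many of their genes carry the prefixes eif-, eef-, ife-, ifg-, iff- and iffb-. The genes described here are all protein-coding rows of the deposited RNA-seq count table whose gene name starts with one of these prefixes. There are 39 of them among 19995 protein-coding rows and 46934 gene rows in all, and the rule uses gene names and gene type alone. The rule leaves out factors that go by other names, among them inf-1 (eIF4A), pab-1 (poly(A)-binding protein) and the eIF3 subunit genes egl-45 and cif-1.

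The series covers whole animals of 6 genotypes with 3 libraries each, aimed at alg-1, the gene of a microRNA-binding Argonaute. Its labels name the wild type N2, the null alg-1(tm492, 0), and the alleles alg-1(ma447,F180del), alg-1(ma443, G199S), alg-1(zen25, V254I) and alg-1(zen18,H751L). Hatched L1 larvae were fed E. coli HB101 at 20 °C and collected 45 hours after feeding began. The table heads its mutant columns with strain names that the sources used here do not tie to an allele, so the 5 mutant genotypes are not analysed here and genotypes are not compared. All values below come from the 3 N2 libraries, which keep the letters A, B and C of their columns. N2 is the reference laboratory strain and carries the wild-type alg-1 gene, which had 1382, 1236 and 1300 reads in A, B and C. Nothing in the labels says whether the libraries came from separate cultures, and each was made from a pool of animals, so their spread may be a technical one.

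The libraries held between 5062173 and 6223521 reads assigned to genes. All 39 genes had reads in every library, and the lowest single count was 36. Markers of 8 tissues or cell classes were looked up. Every marker found in the table had reads, with the pharyngeal gene ceh-22 the lowest at 2, 10 and 3 reads. Having any reads is a low bar and does not test the whole-animal label.

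Translation starts when eIF2, loaded with GTP and the initiator tRNA, joins the small ribosomal subunit together with eIF1, eIF1A and the large scaffold eIF3. The cap-binding protein eIF4E and its partner eIF4G bring this complex to the capped end of the messenger RNA, and eIF5B joins the large subunit. The exchange factor eIF2B recharges eIF2 with GTP. During elongation eEF1A delivers aminoacyl-tRNAs, the eEF1B complex recharges eEF1A, eEF2 moves the ribosome by a codon, and eIF5A assists at stalling sequences.

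The 39 genes took 3.24%, 3.33% and 3.11% of all reads in A, B and C, a mean of 3.23% ± 0.109 (SD, n = 3). The 6 elongation factor genes supplied 82.7% ± 0.105 of that, and the 33 initiation factor genes 17.3% ± 0.105. The division between genes named as initiation and as elongation factors was therefore nearly the same in each library. The 33 include the eIF5A pair, placed under elongation above, which gave 3.9% ± 0.0636 of the reads of the 39 genes. For scale, the 81 genes of cytoplasmic ribosomal proteins took 11.8% ± 0.477 of all reads.

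Levels of different genes were compared per length, as TPM, which is the reads per kilobase of annotated exon scaled so that protein-coding genes sum to 1000000. On this scale the 39 genes ran from 11.2 TPM for ife-4 to 11231 TPM for eef-1A.1, a 1010-fold range, with a median of 154 TPM. The median of all 19987 protein-coding genes with an annotated exon length was 4.56 TPM, and all 39 factors lay above it. Of the 39, 31 were in the top 10% of protein-coding genes. In the order of levels, the 3 values of a gene overlapped those of the next gene down in 17 of 38 neighbouring pairs, so the order of many neighbours cannot be told from the spread.

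**Figure D1:**
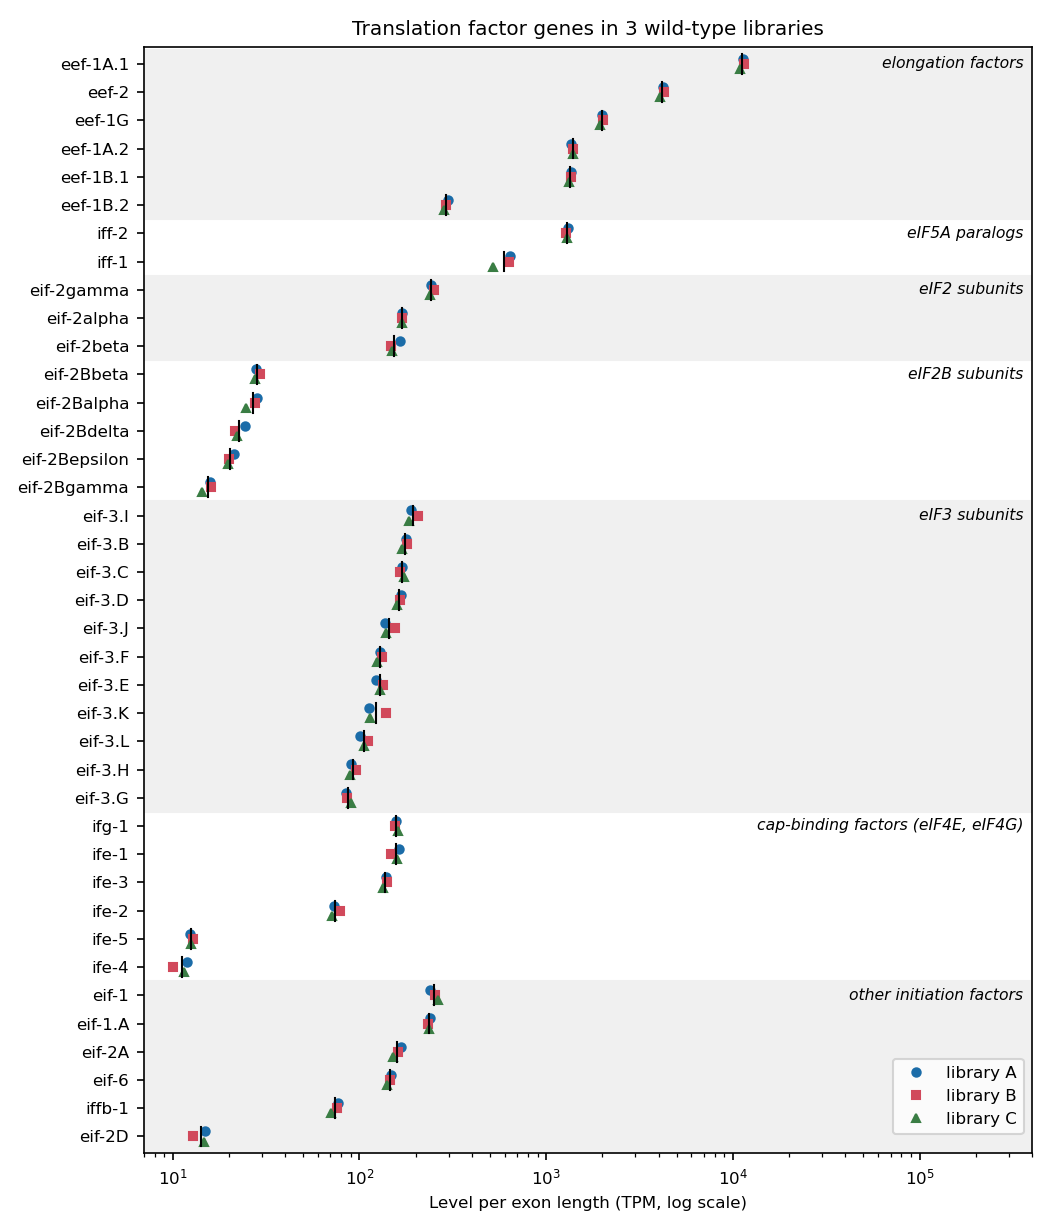
Level of each of the 39 translation factor genes in TPM (reads per kilobase of annotated exon, scaled to 1000000 over protein-coding genes; log axis) in wild-type libraries A, B and C. Points are single libraries and black bars are their means. The elongation factors reach 11231 TPM, the eIF3 subunits sit between 86.6 and 193 TPM, and the eIF2B subunits between 15.4 and 28.3 TPM.

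The elongation factor genes held the upper end. eef-1A.1 (WBGene00001168), which encodes the tRNA-delivering factor eEF1A, had 79263, 75938 and 61660 reads in libraries A, B and C. Its mean level of 11231 ± 277 TPM ranked 1 among protein-coding genes. WBcel235 places it on chromosome III from 6970026 to 6971712 on the reverse strand. The second eEF1A gene, eef-1A.2 (WBGene00001169, chromosome X from 7823654 to 7825769, forward strand), had 11944, 11583 and 9820 reads and stood at 1388 ± 18.2 TPM. Both genes encode proteins of 463 residues in the annotation.

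eef-1A.1 exceeded eef-1A.2 by ratios of 8.28, 8.18 and 7.83 in A, B and C per kilobase of exon, with a mean of 8.10 ± 0.234. Per kilobase of coding sequence the mean ratio was 6.49 ± 0.187. That scale divides all reads of a gene, also those from untranslated exons, by its coding length. Both genes have 1389 coding bases, so this is the ratio of reads alone. The paralogs are close in sequence, and the sources used here do not say how reads that fit both were counted, so this ratio is uncertain.

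eef-2 (WBGene00001167), the translocase gene, was the next highest at 4241, 4256 and 4090 TPM in A, B and C, and ranked 31 among protein-coding genes. The summed eEF1A genes stood at 3.01 ± 0.0161 times eef-2 per kilobase, with hardly any spread over the 3 libraries. These 3 genes together gave 72.2% ± 0.119 of the reads of all 39 factors. The ratio to eef-2 and this share also depend on how reads that fit both eEF1A genes were counted, which the SDs do not cover.

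The remaining elongation genes encode the eEF1B complex, the exchange factor of eEF1A. eef-1G, its gamma subunit gene, stood at 1983 ± 36.4 TPM and eef-1B.1 at 1347 ± 25.5 TPM, a ratio of 1.47 ± 0.0114. eef-1B.2 was lower at 291 ± 7.39 TPM. eef-1B.1 exceeded eef-1B.2 by a ratio of 4.63 ± 0.0524 per kilobase of exon and of 3.93 ± 0.0445 per kilobase of coding sequence. In reads alone this ratio was 1.9 ± 0.0215, because eef-1B.2 has 2043 bases of annotated exon and eef-1B.1 has 840. In CPM all 6 elongation genes were highest in library B, and 5 were lowest in C, where 40.7% and 35.5% of protein-coding genes at 100 CPM or more were so.

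Among the 33 genes counted as initiation factors by name, the eIF5A pair was the highest. eIF5A is a small protein that carries the modified residue hypusine, and iff-1 is known for its role in the germline. iff-2 (WBGene00002065, chromosome II from 8559375 to 8561367) had 6044, 5584 and 4806 reads, which is 971, 968 and 949 CPM (reads per 1000000 of the library total). iff-1 (WBGene00002064, chromosome III from 9745862 to 9747193) had 1964, 1840 and 1293 reads, or 316, 319 and 255 CPM. iff-2 was thus level across the libraries, while iff-1 was lower in C than in A and B.

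Per kilobase of exon, iff-2 stood at 1293 ± 15.4 TPM and iff-1 at 598 ± 65.8 TPM. Their ratio was 2.05, 2.02 and 2.47 in the 3 libraries, a mean of 2.18 ± 0.254. Per kilobase of coding sequence it was 3.97 ± 0.463, because 1013 bases of exon are annotated for the 161 residues of iff-2 and 674 for the 195 residues of iff-1. An annotated non-coding gene on the opposite strand covers 20.5% of the exon bases of iff-1, and it was given a mean of 0.333 reads per library.

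The 12 germline markers summed to 1739, 1706 and 1538 CPM in A, B and C. Of the 12, 10 were lowest in C, as were iff-1, 26 of the 39 factors and 34% of protein-coding genes averaging 20 reads or more. The eIF4E gene ife-1, also known from the germline, gave 119, 110 and 115 CPM and was lowest in B. The 8 oocyte markers summed to 1331, 1301 and 1152 CPM, and the 11 sperm markers to 683, 690 and 601.5 CPM. Every marker of the 3 lists had reads. In whole animals, fewer germ cells and less RNA per germ cell cannot be told apart, and the part of the germline in the level of iff-1 was not tested.

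eIF2 is the GTP-binding factor that carries the initiator tRNA, and phosphorylation of its alpha subunit by the kinases of gcn-2 and pek-1 lowers initiation. eif-2gamma, the GTP-binding subunit gene, stood at 242 ± 6.13 TPM, eif-2alpha at 169 ± 0.253 TPM and eif-2beta at 154 ± 9.91 TPM. eif-2alpha gave 231, 236 and 229 CPM in A, B and C. Of the 3 subunit genes it had the smallest SD. Its coefficient of variation of CPM, 1.61%, was below the 2.76% that counting alone gives.

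The eIF2 order depended on the length used. eif-2gamma exceeded eif-2alpha by a ratio of 1.43 ± 0.0354 per kilobase of exon, but the ratio was 0.943 ± 0.0233 per kilobase of coding sequence, below 1 in each library. eif-2alpha exceeded eif-2beta by 1.10 ± 0.0675 per kilobase of exon and by 1.36 ± 0.0835 per kilobase of coding sequence.

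The 5 subunit genes of eIF2B, the exchange factor that recharges eIF2, were the lowest complex. eif-2Bbeta stood at 28.3 ± 1.01 TPM, eif-2Balpha at 26.8 ± 1.8, eif-2Bdelta at 22.7 ± 1.57, eif-2Bepsilon, the catalytic subunit gene, at 20.3 ± 0.857, and eif-2Bgamma at 15.4 ± 0.843. The mean level of the eIF2 subunit genes was 8.15, 8.26 and 8.52 times that of the eIF2B genes in A, B and C. eif-2Bgamma had 95, 91 and 70 reads, and counting alone gives it a coefficient of variation of 10.9%. The TPM values of eif-2Bbeta and eif-2Balpha overlapped, and those of the other neighbouring pairs among the 5 did not. Counting alone gives eif-2Balpha, eif-2Bdelta and eif-2Bepsilon 9.2%, 7.02% and 7.21%, so the order of these neighbours remains uncertain. Per kilobase of coding sequence eif-2Balpha stood at 24.2 ± 1.65 TPM and eif-2Bdelta at 24 ± 1.71.

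eIF3 is the largest initiation complex and holds the small subunit, the initiator tRNA complex and eIF4G together. The 11 eif-3 genes lay in a narrow band, from 86.6 ± 3.09 TPM for eif-3.G to 193 ± 11.9 TPM for eif-3.I. Relative to the median subunit of the same library, all 11 were within 2-fold, from 0.657 ± 0.0427 for eif-3.G to 1.46 ± 0.0291 for eif-3.I. The highest was 2.23-fold above the lowest per kilobase of exon and 2.13-fold per kilobase of coding sequence.

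Below eif-3.I, the subunit genes eif-3.B, eif-3.C and eif-3.D stood at 175 ± 4.89, 170 ± 4.2 and 164 ± 4.27 TPM. eif-3.J, which encodes a loosely bound subunit, eif-3.F, eif-3.E and eif-3.K lay between 122 and 144 TPM. eif-3.L stood at 106 ± 5.31 TPM, eif-3.H at 92 ± 3.45 and eif-3.G at 86.6 ± 3.09 TPM. Per kilobase of coding sequence the order changed, with eif-3.J at 159 TPM and eif-3.F at 142 above eif-3.D at 134.

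The remaining 2 eIF3 genes go by other names. egl-45, which encodes subunit A, stood at 158 ± 4.44 TPM, and cif-1, which encodes subunit M, at 158 ± 15.8 TPM. Both lay inside the range of the 11 eif-3 genes.

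**Figure D2:**
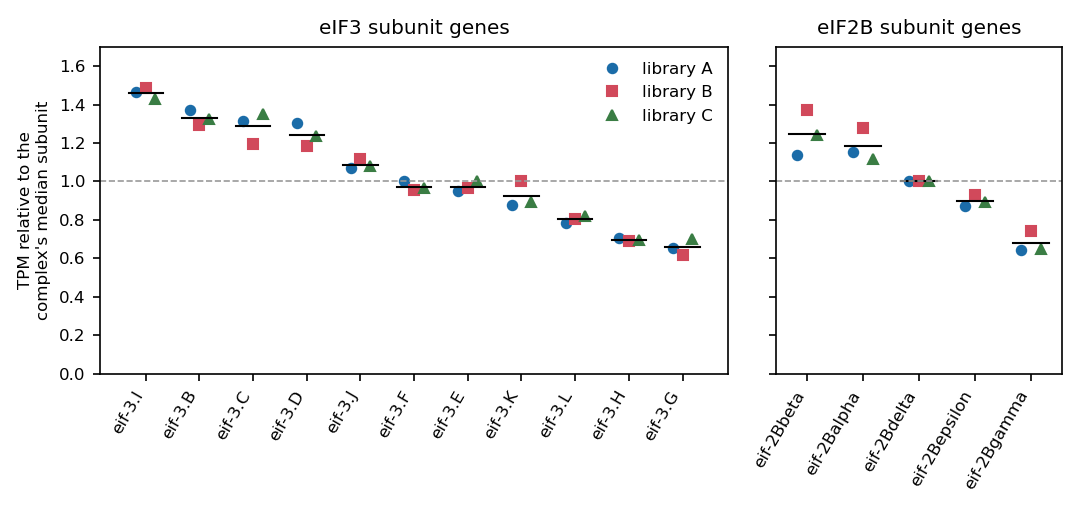
TPM of each eIF3 (left, 11 genes) and eIF2B (right, 5 genes) subunit gene divided by the median subunit of the same complex in the same library; points are wild-type libraries A, B and C, black bars their means and the dashed line the median subunit. eIF3 subunits run from 0.657 to 1.46 and eIF2B subunits from 0.680 to 1.25 of the median.

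Cap binding rests on 5 eIF4E genes and on ifg-1, the single gene here for the scaffold eIF4G. ife-3, the eIF4E gene closest to the main mammalian form, had 709, 677 and 546 reads in A, B and C, or 139, 140 and 133 TPM. ife-1, whose product is known from germ granules and spermatogenesis, had 741, 632 and 582 reads, or 163, 147 and 159 TPM. The means, 157 ± 8.35 TPM for ife-1 and 138 ± 3.99 for ife-3, differed by a ratio of 1.14 ± 0.08.

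By reads alone the ratio of ife-1 to ife-3 was 1.01 ± 0.0712, and below 1 in library B at 0.933. ife-1 also overlaps dro-1 on the same strand over 24.7% of its exon bases, and reads from that stretch can belong to either gene. The levels of ife-1 and ife-3 are therefore not clearly apart.

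ife-2, an eIF4E gene active in somatic cells, stood at 73, 78.3 and 71.1 TPM in A, B and C. ife-3 exceeded it by a ratio of 1.86 ± 0.0573. The last pair of eIF4E genes was far lower, with ife-5 at 12.6 ± 0.227 TPM from 48, 47 and 39 reads and ife-4 at 11.2 ± 0.944 TPM from 46, 37 and 36 reads. ife-3 exceeded ife-4, whose product resembles the mammalian cap-binding repressor 4E-HP, by a ratio of 12.4 ± 1.32. The TPM values of ife-5 lay above those of ife-4 in each library and did not overlap them. Counting alone gives ife-4 and ife-5 a coefficient of variation of 16% and 15%, so their order remains uncertain.

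ifg-1 stood at 156, 155 and 162 TPM in A, B and C, with 4669 bases of exon, the longest of the 39. The 5 ife genes together exceeded it by ratios of 2.56, 2.51 and 2.39 per kilobase. In reads the order was the opposite, with a ratio of 0.532 ± 0.0182. inf-1, the eIF4A helicase gene that works with both, stood at 730 ± 37.4 TPM.

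The 6 other initiation genes covered a wide range. eif-1, which guards the choice of start codon and encodes the shortest protein of the 39 at 109 residues, stood at 252 ± 13.5 TPM. eif-1.A, its partner in scanning, was at 236 ± 2.71 TPM, eif-2A at 159 ± 7.96 and eif-6, a factor that keeps free large subunits apart from small ones, at 145 ± 3.93. iffb-1, the eIF5B gene for subunit joining, was at 74.4 ± 3.38 TPM. eif-2D, whose mammalian counterpart delivers tRNA without eIF2, was at 14.1 ± 1.08 TPM with 124, 102 and 99 reads.

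Other translation genes were taken from a list of 50 symbols, of which 40 matched a name in the table. They include cap and poly(A) partners, kinases, the TOR pathway, release and recycling factors, mitochondrial factors and eIF5A-modifying enzymes. The highest were rack-1, a ribosome-bound scaffold gene, at 4437 ± 90 TPM and pab-1 at 1815 ± 8.66 TPM. Of the 40, 15 stood at or above 100 TPM and 25 below it. Among the 39 factors, 27 stood at or above 100 TPM and 12 below it.

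Kinases, modifying enzymes and termination factors were read beside the factors they act with. efk-1, the eEF2 kinase gene, stood at 31.5 ± 0.906 TPM against 4196 ± 92.2 for eef-2. The eIF2alpha kinase genes gcn-2 and pek-1 stood at 24.7 ± 2.93 and 13.4 ± 0.653 TPM, and let-363, the TOR kinase gene, at 32 ± 2.19. The hypusine-forming enzyme genes dhps-1 and dohh-1, which act on eIF5A, were at 13.4 ± 2.28 and 70.5 ± 5.51 TPM. The termination factor genes erfa-1 and erfa-3 were at 87.6 ± 4.08 and 95.8 ± 4.42 TPM.

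The factors varied little between the libraries, and so did protein-coding genes at 100 CPM or more. The coefficient of variation of CPM had a median of 4.26% over the 39 genes and was below 10% for 37 of them. The exceptions were eif-3.K at 13.4%, with 69.4, 87.2 and 69.9 CPM in A, B and C, and iff-1 at 12.1%. eif-3.K was high in B, and iff-1 was low in C. For 15 of the 39 genes the observed coefficient was below what counting alone gives. The counts of 37 and 15 have no counterpart here for other protein-coding genes. Protein-coding genes at 100 CPM or more had a median coefficient of 4.73% over 1584 genes, and the 26 factors at that level had 3.98%. The median of 4.26% rested on all 3 libraries, and was 2.64% without C, 2.75% without B and 4.93% without A.

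What spread there was leaned in a common direction, though not in every class. Of the 39 genes, 24 were highest in B and 26 were lowest in C. Over the 10283 protein-coding genes averaging 20 reads or more, 29.7% were highest in B and 34% lowest in C, against 61.5% and 66.7% of the factors. At 100 CPM or more, 40.7% of protein-coding genes were highest in B and 35.5% lowest in C, against 65.4% and 73.1% of the 26 factors at that level. The median deviation of log2(CPM + 0.5) from a gene's mean over the libraries was 0.01, 0.05 and -0.06 in A, B and C for the factors. The cytoplasmic ribosomal protein genes stood at 0.00, 0.06 and -0.07, with 71 of 80 highest in B and 69 lowest in C. Of the 11 eIF3 genes 5 were lowest in A and 5 in C. The cap-binding genes took 0.0828%, 0.0831% and 0.0829% of reads in A, B and C. The eIF2B genes took 0.0135%, 0.0132% and 0.0124%, highest in A. The deviations are small, and 3 libraries of 1 genotype allow no test of them.

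**Figure D3:**
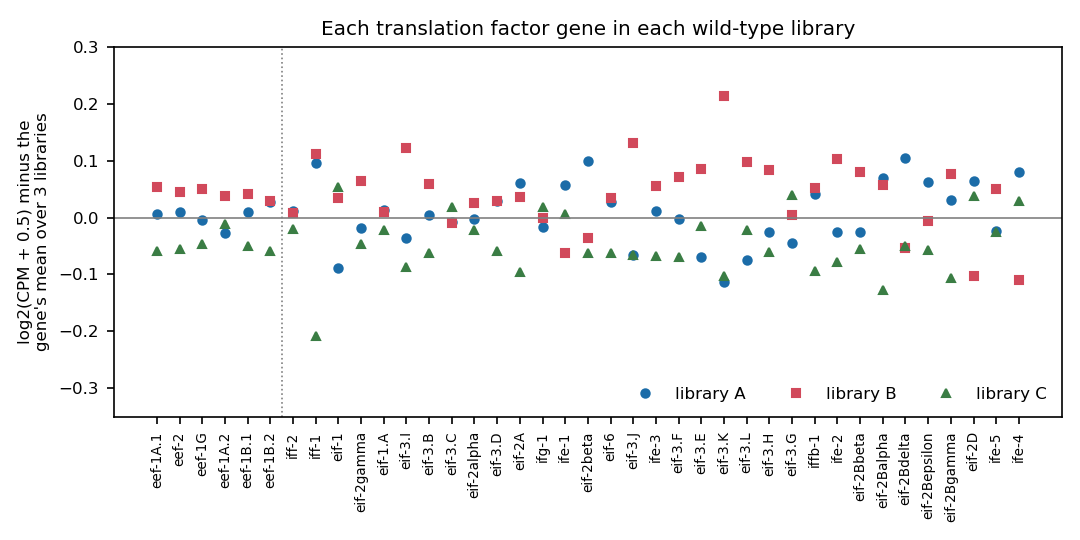
Deviation of log2(CPM + 0.5) in each wild-type library from the gene's own mean over the 3 libraries, for the 39 translation factor genes; elongation factors stand left of the dotted line, and genes run from high to low TPM within each class. Most squares (library B) lie above 0 and most triangles (library C) below it; the lowest point is iff-1 in C and the highest eif-3.K in B.

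Within pairs of libraries, 27 of the 39 genes were higher in B than in A, 31 higher in B than in C and 30 higher in A than in C. The corresponding shares of the 10283 protein-coding genes were 47.4%, 47.8% and 49.9%. These shares cover genes of all levels, and no pairwise shares were taken at 100 CPM or more. At that level 40.7% of protein-coding genes were highest in B and 41.9% lowest in A. The 39 genes together took 3.28% of reads without C, 3.18% without B and 3.22% without A.

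Other gene lists moved between the same libraries. Germline markers had median deviations of 0.06, 0.04 and -0.12 in A, B and C, and oocyte markers 0.11, 0.04 and -0.15. Intestine markers stood at -0.08, 0.01 and 0.06, and hypodermis markers at -0.11, -0.07 and 0.15. Of the 8 hypodermis markers 6 were highest in C, as were 36.2% of protein-coding genes averaging 20 reads or more. The 1 that was highest in A was col-19, at 388, 295 and 237 CPM in A, B and C. Sperm markers stood at 0.087, 0.08 and -0.125, and neuron markers at -0.003, -0.04 and 0.035. Pharynx markers had the widest medians of these lists, at 0.046, -0.19 and 0.206, with 3 of 5 genes lowest in B, where 24 of the 39 factors were highest. Body wall muscle markers were lowest in A in 8 of 8 genes, as were 41.9% of protein-coding genes at 100 CPM or more. The part of any tissue in the deviations of the factors was not tested.

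**Figure D4:**
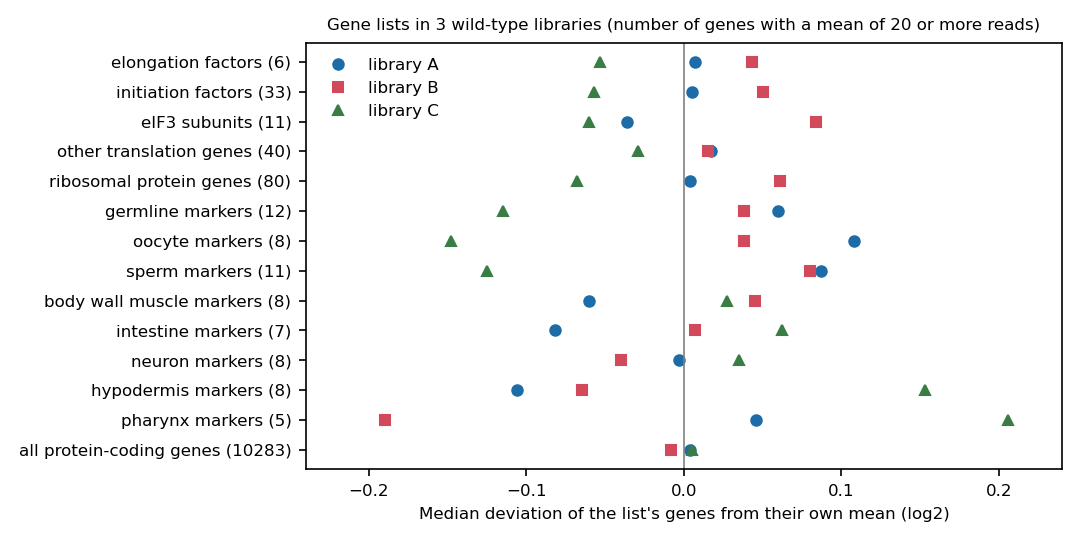
Median deviation of log2(CPM + 0.5) from each gene's own mean, by gene list and wild-type library; the number of genes averaging 20 reads or more stands in brackets. Elongation factors, initiation factors and ribosomal protein genes are highest in B and lowest in C, germline and oocyte markers are highest in A and lowest in C, and intestine and hypodermis markers are highest in C.

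The genes lie on 6 chromosomes. Chromosomes I, II and III hold 30 of the 39, with 28.2% of the factors on I, 30.8% on II and 17.9% on III, where 14.4%, 17.3% and 13.2% of all protein-coding genes lie. Chromosome IV holds 5.13% of the factors and 16.4% of protein-coding genes, chromosome V 10.3% and 25%, and chromosome X 7.69% and 13.7%. The X-linked members were eef-1A.2, ife-2 and ife-4. Exons of 16 of the 39 overlap exons of another annotated gene. The overlap was 9.93% of exon bases or less outside ife-1 and iff-1.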

How the data were processed

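Whole-animal RNA was depleted of ribosomal RNA and made into NEBNext Ultra II libraries, per the labels' protocols. The values deposited by the authors are raw counts of reads for each gene. The submitters' processing notes list featureCounts, Subread 1.6.2, Bowtie2 2.3.5.1 and cutadapt 1.9 without saying what each did. The sources used here state neither genome build, strand setting nor the treatment of shared reads, which affect paralogs and overlapping genes. The 3 columns headed N2 match the wild-type genotype label and were taken as replicates without numbers. A further 15 columns of per-sample values were left unused.

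CPM is the count over the library total. TPM divides counts by the union of exons in WBcel235 (Ensembl release 115), matched on gene identifiers, and 10 gene rows without a length were left out. Values per kilobase of coding sequence divide the same counts by the longest annotated coding sequence, so reads from untranslated exons stay in them. Ratios were taken within each library. Errors are SDs over 3 libraries and cover these libraries only. No member was at 0, so no bound for a count of 0 was given. At low counts the SD can be smaller than the error of counting, as in the 8 genes below 30 TPM. Library size factors (TMM, RLE) came from edgeR 4.0.16 under R 4.3.3 and were checked on simulated data. Python 3.11.15, numpy 2.4.6, pandas 2.3.3 and matplotlib 3.10.9 were used. Every member was named, with the paralog families and elongation factors in full. The members and lists were chosen with earlier results of these data known. egl-45 and cif-1 were added after the table was seen. The planned edgeR tests between genotypes were not run.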

Additional observations from a re-analysis of the deposited data

How the results depend on the processing

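The alternatives that belong to comparisons between genotypes (another test, filter, fit or left-out replicate) were not run, because the mutant columns were not tied to alleles. No paired analysis was possible because the N2 columns have letters in place of replicate numbers and no second genotype was analysed. TMM and RLE library sizes moved no level by as much as its SD. With the protein-coding total as denominator, the share of the 39 genes was 3.42%, that of elongation factors 2.82% and that of initiation factors 0.592%, and 27 of 39 levels rose by more than their SD, since the denominator is smaller. Leaving out 1 library gave 3.18% to 3.28%, 2.62% to 2.72% and 0.552% to 0.567%, but cannot move a mean by its SD.

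Ratios depend on length by construction. By reads without length they were 6.49 for eef-1A.1 to eef-1A.2, 1.7 for the eef-1A genes to eef-2, 2.56 for eef-1G to eef-1B.1, 1.9 for eef-1B.1 to eef-1B.2, 3.28 for iff-2 to iff-1, 1.01 for ife-1 to ife-3, 2.49 for ife-3 to ife-2, 16.3 for ife-3 to ife-4, 0.532 for the ife genes to ifg-1, 1.29 for eif-2gamma to eif-2alpha and 1.87 for eif-2alpha to eif-2beta. Per kilobase of coding sequence they were, in the same order, 6.49, 3.12, 1.37, 3.93 and 3.97, then 2.26 for ife-3 to ife-2, 13.8 for ife-3 to ife-4, 2.61 for the ife genes to ifg-1, 0.943 and 1.36 for the eIF2 pairs, and 10.2 for eIF2 to eIF2B subunits. The median coefficient of variation ran from 2.64% without C to 4.93% without A, and was 2.75% without B. Between 26 and 28 genes were lowest in C and 20 to 28 highest in B under the scalings tried. For each of the 8 genes below 30 TPM the observed coefficient was below the one that counting alone gives.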
